A study of Mus musculus with 3 samples.

Results

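Messenger RNA of mouse embryonic stem cells that lack a working Pcgf6 gene was set against that of wildtype cells, using 2 of the 3 arrays in the study. Both are labelled as male embryonic stem cells and differ in genotype: one is wildtype, and the other, Pcgf6KO, was made by Cas9 editing. All cells were cultured in serum and leukemia inhibitory factor on mitomycin-C-inactivated mouse embryonic fibroblasts, so the RNA of either sample can hold feeder transcripts. The labels do not say whether the Pcgf6KO cells are a single clone, which allele was made, or which strain was used. The third array, labelled Pcgf6KO+ Pcgf6_flag, was not used here. Each genotype has 1 array, and both arrays sit on the same slide. There are therefore no replicates, no difference has a test, and what follows gives sizes and counts only. Genes were sorted by function into 93 classes, which hold 4607 of the 14998 genes that were measured on both arrays.

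Pcgf6 is a RING finger protein that defines a variant Polycomb complex known as PRC1.6. Polycomb complexes of this kind attach ubiquitin to histone H2A and hold genes in a repressed state. In PRC1.6 the DNA-binding partners are Mga with Max, which recognise the E-box, and E2f6 with its Dp partner, which recognises E2F sites. In embryonic stem cells the complex is best known for keeping germline and meiosis genes silent. The classes described here go beyond that group, which serves as a reference.

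Each value is the log2 of the spot intensity after subtraction of the array's 75th percentile, so a value of 0 lies at that percentile and a difference of 1 is a 2-fold change. Over all non-control spots the 75th percentile was at 4286 signal units for wildtype and 4686 for Pcgf6KO. The percentile subtracted was taken over probes, without outlier spots, and can differ slightly. Of the spots 66.0% and 66.6% were well above background. Repeated spots of 1 probe had an SD of 0.06 on each array. Different probes of 1 gene gave differences with a median SD of 0.14. Of the 217 genes past 2-fold with several measured probes, 209 had all of them on 1 side of 0. In 149 of the 217 all probes passed 2-fold the same way. The spread was wider at dim signal, where most genes past 2-fold lay. The pooled SD over probes of a gene was 0.35 for the 3750 dimmest genes and 0.16 for the 3750 brightest. Over repeated spots of 1 probe the pooled SD was 0.16 and 0.06 at these signals. These figures cover spotting and probe choice, not the spread between cultures. All 10 embryonic stem cell markers were well above background on both arrays, from 1.24 to 4.96 in wildtype and from 1.53 to 4.85 in Pcgf6KO, with none past 2-fold. One label field mentions muscle. Of 9 muscle markers 6 were measured, none past 2-fold, and Myog, Myf5 and Ckm were not well above background on either array. Fibroblast markers were lower in Pcgf6KO: 21 of 22 were above background in wildtype and 19 in Pcgf6KO. Over the 19 measured on both arrays the summed scaled signal was 42.7 and 18.7, and the median difference was -0.93. Postn and Prrx1, above background in wildtype alone, are not in that sum. Pcgf6 itself read 1.87 in wildtype and 0.84 in Pcgf6KO, a difference of -1.03. The position of its probe relative to the edit is not given, and an edit need not remove the transcript, so this value does not check the label. Of the other 15 subunits of PRC1.6, none passed 2-fold: E2f6 differed by 0.56, Mga by -0.35, Max by -0.23 and L3mbtl2 by -0.09.

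Genes higher in Pcgf6KO by 2-fold or more outnumbered those that were lower by as much. They numbered 873 of 14998 genes measured on both arrays (5.82%), against 422 lower (2.81%), so that 1295 genes (8.63%) passed 2-fold either way. The excess of higher genes lay among dim genes. Of the 3750 dimmest genes 497 were higher and 217 lower, whereas of the 3750 brightest 15 were higher and 8 lower. In the brighter 7499 genes 76 were higher (1.01%) and 58 lower (0.773%). The median difference also moved with signal, from 0.12 in the dimmest group to -0.10 in the brightest, and was -0.03 over all genes. A class of dim genes thus has to be read against 13.3% higher and 5.79% lower, the shares among the dimmest genes. At larger sizes the balance turned: 161 genes were at least 4-fold higher and 84 lower, but at least 16-fold there were 9 higher and 16 lower. Genes were judged here by their brightest probe, even where a dimmer probe was measured on both arrays. A further 553 genes were measured on the Pcgf6KO array alone and 336 on the wildtype array alone. For these the difference is a bound, the brighter level over the dimmer array's lowest signal well above background or the gene's own level there, whichever was higher. By that bound 182 of the 553 were at least 2-fold higher (32.9%) and 149 of the 336 at least 2-fold lower (44.3%).

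**Figure D1:**
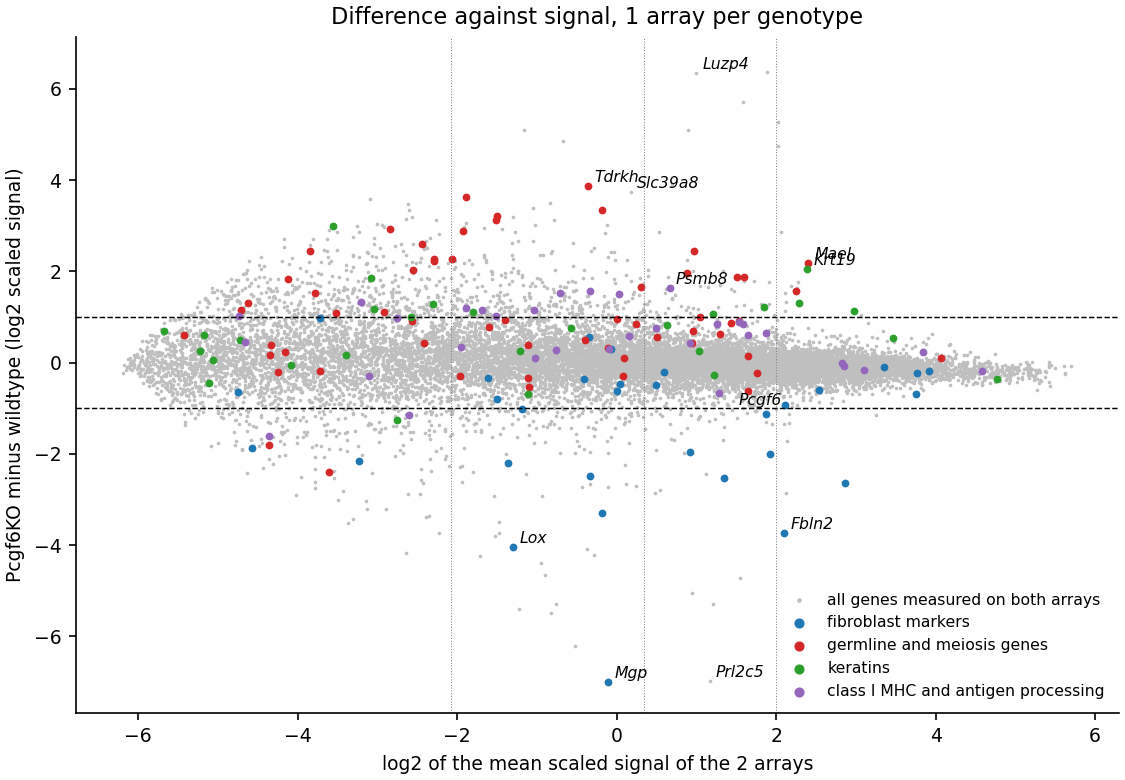
Difference between Pcgf6KO and wildtype (log2 scaled signal) against the log2 of the mean scaled signal of both arrays, 1 point per gene measured on both arrays; dashed lines mark 2-fold, dotted lines divide the genes into groups of equal size by signal. The cloud narrows towards bright genes, keratins (green), class I MHC and antigen processing genes (purple) and germline genes (red) lie mostly above 0, and fibroblast markers (blue) mostly below, down to -7.00 for Mgp.

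The E-box is the letters CACGTG, which read the same on both strands. Its place in strongly higher genes is shown with the stretch before the transcription start of 4 genes whose promoter holds it, from RefSeq promoter windows of GRCm38.p6, with the E-box in capitals. Slc39a8, a zinc and manganese importer, is shown because it is the highest of all solute carriers measured. The other three are testis or germ cell genes and are shown for comparison: Ct55, a cancer and testis antigen, Rbm46, an RNA-binding protein of meiosis, and Tcam1, a testis adhesion molecule.
Slc39a8, chr3:135825546-135825631, plus strand: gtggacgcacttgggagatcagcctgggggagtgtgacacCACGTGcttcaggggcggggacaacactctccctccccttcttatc
Ct55, chrX:53724738-53724823, plus strand: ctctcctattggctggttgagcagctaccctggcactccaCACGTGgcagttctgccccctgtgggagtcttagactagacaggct
Rbm46, chr3:82876484-82876557, minus strand: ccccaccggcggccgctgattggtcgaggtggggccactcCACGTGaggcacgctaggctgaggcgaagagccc
Tcam1, chr11:106276643-106276721, plus strand: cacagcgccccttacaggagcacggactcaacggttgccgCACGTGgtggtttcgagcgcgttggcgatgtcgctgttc
The E-box begins 71 bases before the start of Slc39a8, 53 before that of Ct55, 34 before that of Rbm46 and 39 before that of Tcam1. Slc39a8 read -2.65 in wildtype and 1.08 in Pcgf6KO. Ct55 read -4.58 and 0.28, Rbm46 -4.62 and -1.0, and Tcam1 -3.64 and -0.44. All 4 were dim in wildtype and 3.20 to 4.86 higher in Pcgf6KO. They were picked from genes at least 8-fold higher with an E-box before the start. The size of their differences thus follows from the choice and says nothing about the E-box.

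Across all genes, promoters with an E-box were about as frequent among higher genes as among the rest. A window runs from 250 bases before to 50 after a RefSeq start, and a gene counts if any of its windows holds the motif. The E-box stood in 79 of 679 genes at least 2-fold higher (11.6%), in 1226 of 10934 genes within 2-fold (11.2%) and in 29 of 308 genes at least 2-fold lower (9.42%). Over all 27025 genes with a window the share was 8.09%, and over the 32851 windows it was 7.15%. It reached 6 of 30 in genes at least 8-fold higher (20%), 2 of 15 in genes at least 8-fold lower (13.3%) and 20 of 51 in the germline list (39.2%), and none of 18 fibroblast markers held it. The E2F motif, TTCCCGC on either strand, stood in 6.48% of higher genes, 9.48% of those within 2-fold and 35.3% of the germline list. The T-box core, GGTGTGA on either strand, stood in 5.74% of higher genes and 4.16% of those within 2-fold. None of the 3 motifs contains another, and a match is a run of letters, not a bound site. The groups also differed in base composition: the median ratio of observed to expected CpG was 0.54 in the windows of higher genes and 0.77 in those within 2-fold. Among the brighter genes the E-box share was 9.68% of higher genes, 12.9% of those within 2-fold and 11.6% of lower genes.

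**Figure D2:**
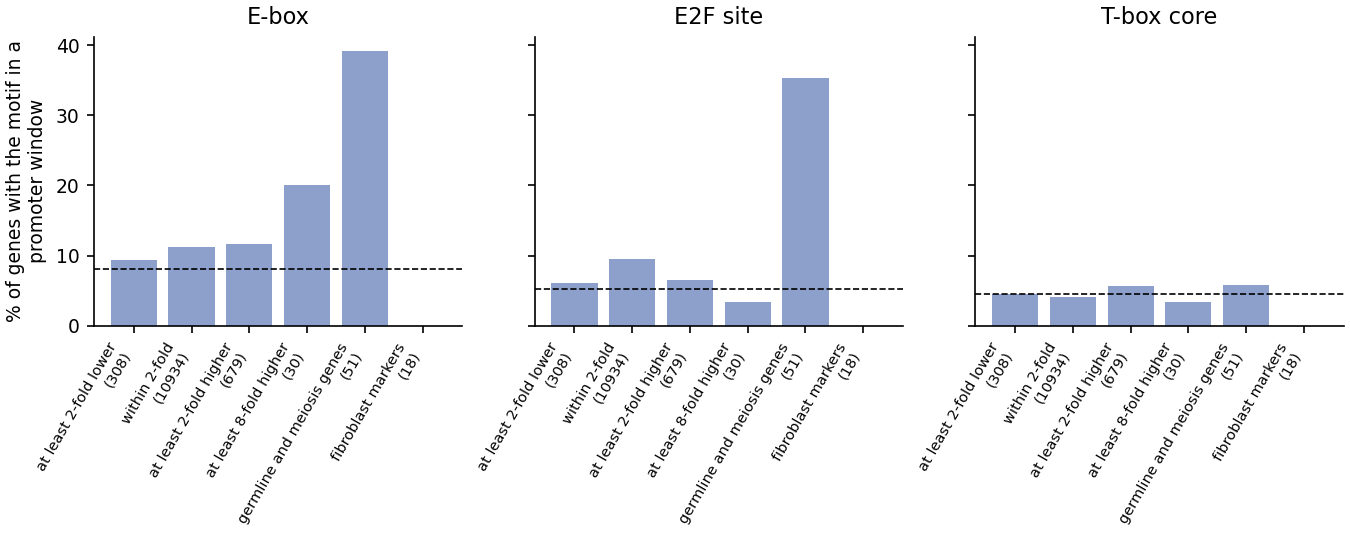
Share of genes (%, bars from 0) with an E-box, E2F motif or T-box core in a RefSeq promoter window, by group, with the number of genes with a window in brackets; the dashed line is the share over all 27025 genes. The germline list stands out for E-box (39.2%) and E2F (35.3%), while genes at least 2-fold higher lie at 11.6% for the E-box beside 11.2% for genes within 2-fold.

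Keratins, the intermediate filament proteins of epithelia, were higher as a class. Among the 28 keratins with a level in each genotype, 10 were higher by 2-fold or more and 1 was lower, with a median of 0.66. The share of 35.7% compares with 5.82% of all genes, and 5 of the 10 bright keratins were among the higher ones, against 1.01% of bright genes. Krt19, which marks simple epithelia and trophoblast, read 1.03 in wildtype and 3.08 in Pcgf6KO, a difference of 2.04 between clearly measured levels. Krt42 read 1.5 and 2.80, and the hair keratin Krt32 went from -5.71 to -2.72. Krt8 and Krt18, which pair with each other in simple epithelia, were bright on both arrays. Krt8 read 2.31 and 3.44 and Krt18 3.17 and 3.71, so Krt8 passed 2-fold by a small margin and Krt18 did not. Krt8 was picked out after its values were seen. Krt9 was the only keratin lower by 2-fold or more, at -2.26 and -3.51. Among junction genes of epithelia Cdh1, the epithelial cadherin, differed by 0.19, and of 22 claudins and tight-junction genes 2 were higher and 0 lower, led by Marveld3 with 1.39. The desmosomal cadherin Dsc2 was 2.62 higher, from -3.15 to -0.53.

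Genes of the trophoblast, the lineage that builds the placenta, were also higher more often than lower. Of 20 measured on both arrays 5 were higher and 1 lower (25% and 5%, beside 5.82% and 2.81% of all genes), with a median of 0.48. Prl3d1, a placental lactogen, was lower as a bound, by at least 3.92-fold. The X-linked homeobox genes Rhox6 and Rhox9 read -0.02 and 1.22 in wildtype and 1.66 and 2.86 in Pcgf6KO. The transcription factor Hand1 was 1.47 higher and Plac1 1.41 higher, while Syna, a placental fusion protein, differed by -1.49. Cdx2 and Eomes, which set trophoblast identity, differed by 0.50 and 0.31 and stayed within 2-fold. Krt8 belongs to this list too.

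The GPI-anchored Ly6 and urokinase-receptor family also had members above 2-fold on 1 side only. Of 21 members measured on both arrays 5 were higher and 0 lower (23.8% and 0%), with a median of 0.32. The shares were 5.82% and 2.81% over all genes and 13.3% and 5.79% over the dimmest genes. Only 4 of the 21 were bright. Tex101, a surface protein of germ cells, read -1.52 in wildtype and 1.35 in Pcgf6KO. Ly6a, also called Sca-1, read -1.91 and -0.28, and Ly6h -1.23 and 0.61. Ly6k, not well above background in wildtype, was at least 10.4-fold higher in Pcgf6KO.

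Class I MHC genes and the machinery that loads them with peptides were higher in Pcgf6KO. Of 33 genes measured on both arrays 10 were higher and 2 lower (30.3% and 6.06%, beside 5.82% and 2.81% of all genes). Their median was 0.60, but only 1 of the higher ones was among the 14 bright members. Psmb8, the immunoproteasome subunit, read -0.37 in wildtype and 1.27 in Pcgf6KO. The peptide transporter subunit Tap2 read -1.67 and -0.14, and the aminopeptidase Erap1, which trims peptides, -4.01 and -2.68. The heavy chains H2-Q8 and H2-M3 were 1.57 and 1.5 higher, and H2-M9 and H2-M5 differed by -1.62 and -1.16. H2-M1 was at least 2.78-fold lower. The classical chains H2-K1 and H2-D1 differed by 0.89 and 0.59, B2m, their light chain, by -0.06 and Tap1 by -0.30. The class therefore moved unevenly: Tap1 and Tap2, partners in a single transporter, lay on either side of 0. Class I heavy chains are near copies of each other, so a probe may read several of them.

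Interferon-stimulated genes and RNA sensors moved in both directions. Of 60 measured on both arrays 8 were higher and 2 lower (13.3% and 3.33%, beside 5.82% and 2.81% of all genes). Only 14 of the 60 were bright, and the share of higher members was the 13.3% found among the dimmest genes, of which 5.79% were lower. The class median of 0.14 turned negative among bright genes. The guanylate-binding proteins Gbp2, Gbp3 and Gbp7, interferon-induced GTPases, read 0.41, -0.40 and -3.99 in wildtype and 2.02, 1.21 and -1.80 in Pcgf6KO. Ifih1, a sensor of double-stranded RNA, was 1.79 higher, and the ubiquitin-like Isg15 was 1.20 higher. Ifi27 read 0.45 and -2.21, a difference of -2.66, and Ifi204 one of -2.43. The chemokine Cxcl10, an interferon target, read -1.40 in wildtype and 0.86 in Pcgf6KO.

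The element that interferon-activated factors recognise, GAAANNGAAA on either strand, was searched for in the same windows after these values were seen. It stood in 21 of 43 interferon genes with a window (48.8%), against 3.99% of all genes with a window. Among the interferon genes that were at least 2-fold higher it stood in 6 of 8, and among the others in 15 of 35. Over all genes the shares were 4.71% for higher genes, 4.55% for lower genes and 3.39% for those within 2-fold. The stretches around it are shown for 4 higher genes, with the match that the search returned in capitals, from GRCm38.p6.
Gbp7, chr3:142530258-142530317, plus strand: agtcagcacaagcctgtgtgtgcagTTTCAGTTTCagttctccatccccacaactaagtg
Gbp2, chr3:142620579-142620638, plus strand: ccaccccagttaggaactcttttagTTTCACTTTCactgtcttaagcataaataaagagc
Gbp3, chr3:142559974-142560033, plus strand: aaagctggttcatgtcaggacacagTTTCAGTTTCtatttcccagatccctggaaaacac
Isg15, chr4:156200862-156200921, minus strand: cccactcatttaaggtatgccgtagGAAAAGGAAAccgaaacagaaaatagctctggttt
In the 3 Gbp genes the match in capitals has the reverse orientation, at 45 to 59 bases before their start. In Isg15 it has the forward orientation, at 78 bases. The stretches of Gbp3 and Isg15 hold further overlapping matches, left in small letters. The Gbp genes lie close together on chromosome 3 and are near copies, so their values may not be independent.

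Wnt signalling genes were higher more often than lower. Of 53 measured on both arrays 12 were higher and 1 lower (22.6% and 1.89%), with a median of 0.28. The shares were 5.82% and 2.81% over all genes and 13.3% and 5.79% over the dimmest genes. Yet none of the 10 bright members passed 2-fold and their median was below 0. Among the ligands Wnt3, which acts in gastrulation, read -2.57 in wildtype and -0.55 in Pcgf6KO. Wnt4 read -3.14 and -1.57 and Wnt7a -5.24 and -3.68. The secreted antagonist Wif1 was 1.55 higher, and the agonist Rspo2 was at least 3.63-fold higher, being not well above background in wildtype. The antagonist Dkk2 went the other way, from -2.43 to -5.86. Readouts of the pathway were mixed: Axin2, a common target, differed by 0.79, the effectors Tcf7 and Lef1 by 0.32 and -1.05, and Ctnnb1, the central transducer, by -0.06.

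Ligands and antagonists of the TGF-beta and BMP family moved in both directions by large amounts. Of 58 measured on both arrays 8 were higher and 7 lower (13.8% and 12.1%), with a median of -0.02. The shares were 5.82% and 2.81% over all genes and 13.3% and 5.79% over the dimmest genes. Bmp6 read -4.80 in wildtype and -2.38 in Pcgf6KO, Bmp2 -4.02 and -2.33, and the BMP antagonist Chrdl1 -5.92 and -3.78. Tgfb2 was 1.47 higher, with its 2 probes at 1.32 and 1.47. On the lower side were Inhba, the activin A subunit, at 2.49 and -2.22, the BMP antagonist Grem1 at -0.58 and -4.31, and Tgfb3 at -0.71 and -3.64. The ligands that stem cells themselves use differed less: Nodal by -0.63, Lefty1 by -0.31 and Bmp4 by 0.10.

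Growth factors and their receptors split in a similar way. Of 32 ligands of the EGF, PDGF, VEGF and related families 5 were higher and 4 lower. These shares of 15.6% and 12.5% compare with 5.82% and 2.81% of all genes, and 13.3% and 5.79% of the dimmest. Ereg, an EGF receptor ligand, read -1.71 in wildtype and -5.89 in Pcgf6KO, and Csf1, the macrophage growth factor, 1.88 and -0.56. Pdgfb was 1.72 higher and Tgfa 1.62 higher. Among receptor tyrosine kinases Kit, the receptor of germ cell and blood progenitors, read -2.63 and -0.75, and Axl read 0.91 and -0.54. Fgf5, a marker of the primed epiblast, was 1.85 higher, and Fgf7 was at least 10.5-fold lower.

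**Figure D3:**
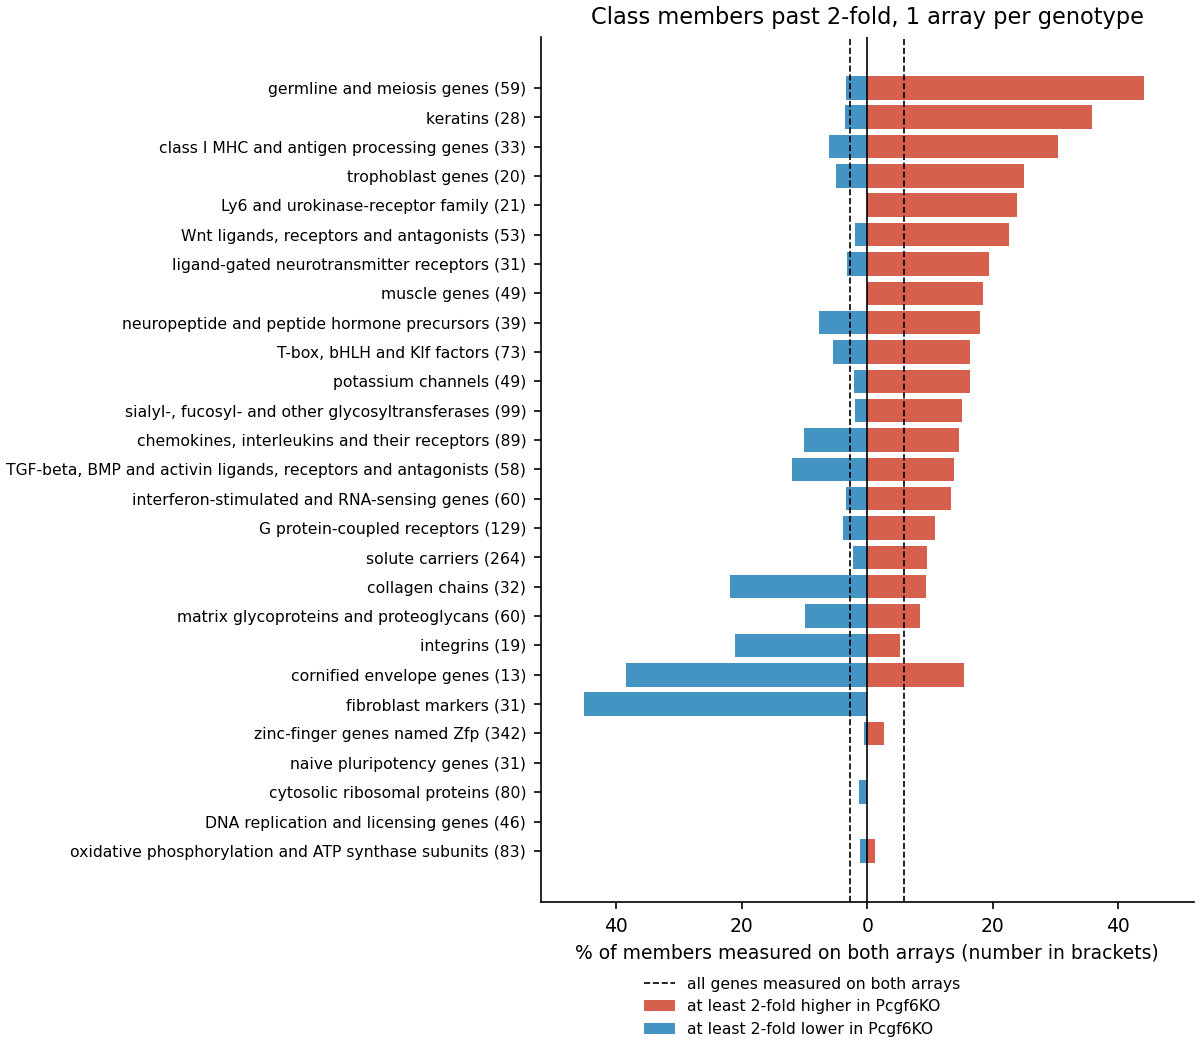
Share of class members (%) at least 2-fold higher (red, to the right) or lower (blue, to the left) in Pcgf6KO, among members measured on both arrays, whose number is in brackets; dashed lines mark 5.82% and 2.81%, the shares over all genes. Among the classes drawn, keratins (35.7%) and class I MHC genes (30.3%) extend furthest to the right after the germline list (44.1%). Of the same classes, fibroblast markers (45.2%) and cornified envelope genes (38.5%) extend furthest to the left, and ribosomal, replication and pluripotency genes stay near 0. The prolactin family, with 2 of 5 lower (40%), is not drawn.

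Receptors and channels of neurons were mostly measured at low signal, where genes in general were higher more often than lower (13.3% and 5.79% of the dimmest genes). Of 31 ligand-gated neurotransmitter receptors 6 were higher and 1 lower (19.4% and 3.23%), with a median of 0.33. The GABA receptor subunit Gabra2 read -5.80 in wildtype and -2.20 in Pcgf6KO, Gabra4 -4.34 and -2.31, and the glycine receptor subunit Glrb -4.01 and -2.31. The only bright member, Chrna9, was lower, with 0.93 and -0.13, so the direction of this class turned among bright genes. Of 49 potassium channel genes 8 were higher and 1 lower (16.3% and 2.04%), led by Kcns1, which went from -3.31 to -0.46, and none of the 5 bright ones passed 2-fold. Among other channels the irritant sensor Trpa1 read -2.39 and 0.24.

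Peptide hormone and neuropeptide genes had members with large differences on both sides. Of 39 precursors 7 were higher and 3 lower (17.9% and 7.69%, beside 13.3% and 5.79% of the dimmest genes), with a median of 0.32 that turned among bright genes. Penk, the enkephalin precursor, was bright on both arrays, at 0.77 in wildtype and 2.54 in Pcgf6KO. Tac1, which encodes substance P, read -2.98 and -1.14, and Grp -3.88 and -1.84. The neurotensin gene Nts was at least 16.2-fold higher, and the tachykinin gene Tac2 and Nms, which encodes neuromedin S, were at least 3.72-fold and 2.51-fold lower. Cck, which encodes cholecystokinin, went from 0.46 to -5.75, a difference of -6.21, while the cholecystokinin receptor Cckbr was 2.91 higher by one probe and 0.69 by the other.

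G protein-coupled receptors were mostly dim. Of the receptors with a level in each genotype 14 were higher and 5 lower (10.9% and 3.88%). The serotonin receptor Htr5b read -4.11 in wildtype and -1.05 in Pcgf6KO, and Gpr85 -4.29 and -2.08. Gpr176 read -1.33 and -5.06. None of the 20 bright receptors passed 2-fold. Synaptic adhesion and vesicle genes were higher in 11 and lower in 3 of 80, with Stxbp6 at 1.95, and none of the 29 bright ones passed 2-fold. The neurofilament gene Nefm was 2.36 higher, from -3.28 to -0.92. The shares of higher receptors and synaptic genes, 10.9% and 13.8%, lie beside 13.3% among the dimmest genes.

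Solute carriers form the largest transporter family, with 264 members measured on both arrays. Of these 25 were higher and 6 lower (9.47% and 2.27%), and of the 89 bright members 1 was higher and 1 lower. The shares were 5.82% and 2.81% over all genes and 13.3% and 5.79% over the dimmest genes. Slc39a8, whose promoter is shown above, had the largest difference, 3.73, and lay above the 75th percentile in Pcgf6KO. The bile-acid-carrier relative Slc10a4 read -5.21 in wildtype and -2.16 in Pcgf6KO. Slc25a31, the testis form of the mitochondrial ADP and ATP carrier, read -3.90 and -1.87. The vitamin C transporter Slc23a1 was lower, at -1.71 and -4.04. The main glucose carriers Slc2a1 and Slc2a3 differed by 0.45 and 0.40. Other metal-handling genes besides Slc39a8 were Hfe, a regulator of iron uptake, at -3.37 and -1.12, and the copper oxidase Heph at -3.26 and -1.1. The 2 probes of Heph disagreed in size, at 2.16 and 0.26. The abundant genes of metal storage and uptake differed little: Mt1 by 0.06, Mt2 by 0.01, Fth1 by 0.23 and Tfrc by 0.00 at 2 decimals.

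Glycosyltransferases, which build the sugar chains of proteins and lipids, were higher in 15 and lower in 2 of 99 (15.2% and 2.02%), with a median of 0.10. The shares were 5.82% and 2.81% over all genes and 13.3% and 5.79% over the dimmest genes. Of the 27 bright glycosyltransferases 3 were higher. The sialyltransferase St8sia6 read -5.22 in wildtype and -1.74 in Pcgf6KO. Fut4, a fucosyltransferase that can make the Lewis x antigen, read -3.95 and -2.18, and Galnt14, which starts mucin-type chains, -3.17 and -1.27. The lower members were Galnt9 and Galnt18, by -1.46 and -1.26.

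Metabolic genes past 2-fold were found in several pathways. Among 35 genes of amino acid metabolism 5 were higher and 1 lower (14.3% and 2.86%). The shares were 5.82% and 2.81% over all genes and 13.3% and 5.79% over the dimmest genes. Gatm, the first enzyme of creatine synthesis, read -0.84 in wildtype and 1.06 in Pcgf6KO. Tph1 and Ido1, which use tryptophan, read -4.23 and -5.50 in wildtype and -1.42 and -3.06 in Pcgf6KO. Ass1, the argininosuccinate synthase, was lower, at 2.62 and 1.49. Lpl, the lipoprotein lipase, was 1.93 higher by one probe and 2.56 by the other. In the P450 and steroid class 10 of 70 were higher and 5 lower (14.3% and 7.14%). Cyp2r1, a vitamin D hydroxylase, read -2.72 and -0.79, and Ugt1a6b was lower, at -1.49 and -4.85. The Cyp2j genes in this class are near copies. Bhmt, which remethylates homocysteine, was 2.14 higher with both probes in close accord.

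Transcription factors past 2-fold were found on both sides. Of 73 T-box, bHLH and Klf factors 12 were higher and 4 lower (16.4% and 5.48%). The shares were 5.82% and 2.81% over all genes and 13.3% and 5.79% over the dimmest genes. Tbr1, a cortical T-box factor, read -5.27 in wildtype and -2.42 in Pcgf6KO, and Atoh1, a proneural factor, -3.95 and -2.14. The germ cell factors Sohlh2 and Figla read -0.72 and -3.80 in wildtype and 1.72 and -1.56 in Pcgf6KO. Of 82 homeobox genes outside the Hox and Rhox clusters 7 were higher and 6 lower (8.54% and 7.32%). Dlx3 and Dlx4, placental and craniofacial factors, were 2.11 and 1.99 higher, and Gbx2, which stem cells express, read 2.68 and 1.35. Prrx1, a mesenchymal factor that is also a fibroblast marker, was at least 37.2-fold lower, and Foxc2 read -2.66 and -5.67. Of 342 zinc-finger genes named Zfp, 9 were higher and 2 lower (2.63% and 0.585%), both shares below those of all genes. Among chromatin regulators outside Polycomb 2 were higher: the testis bromodomain protein Brdt, at -4.95 and -2.02, and the remodeller Smarca2, at -2.69 and -0.73.

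A small group of sarcomere and red-cell genes was also higher. Of 49 muscle genes 9 were higher and 0 lower (18.4% and 0%), while their median was -0.09. The shares were 5.82% and 2.81% over all genes and 13.3% and 5.79% over the dimmest genes. Of the 14 bright muscle genes 2 were higher. Myosin heavy chains made up 7 of the 9, among them Myh4, which read -5.07 in wildtype and -2.89 in Pcgf6KO, Myh7 at -2.44 and -0.53 and Myh7b at -1.5 and 0.08. Myosin heavy chains are near copies of each other, as are the alpha-globin genes, of which Hba-a1 and Hba-a2 were 1.1 and 1.63 higher. Values within either family may come from shared sequence. The muscle regulator Myod1 read 1.40 on both arrays.

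**Figure D4:**
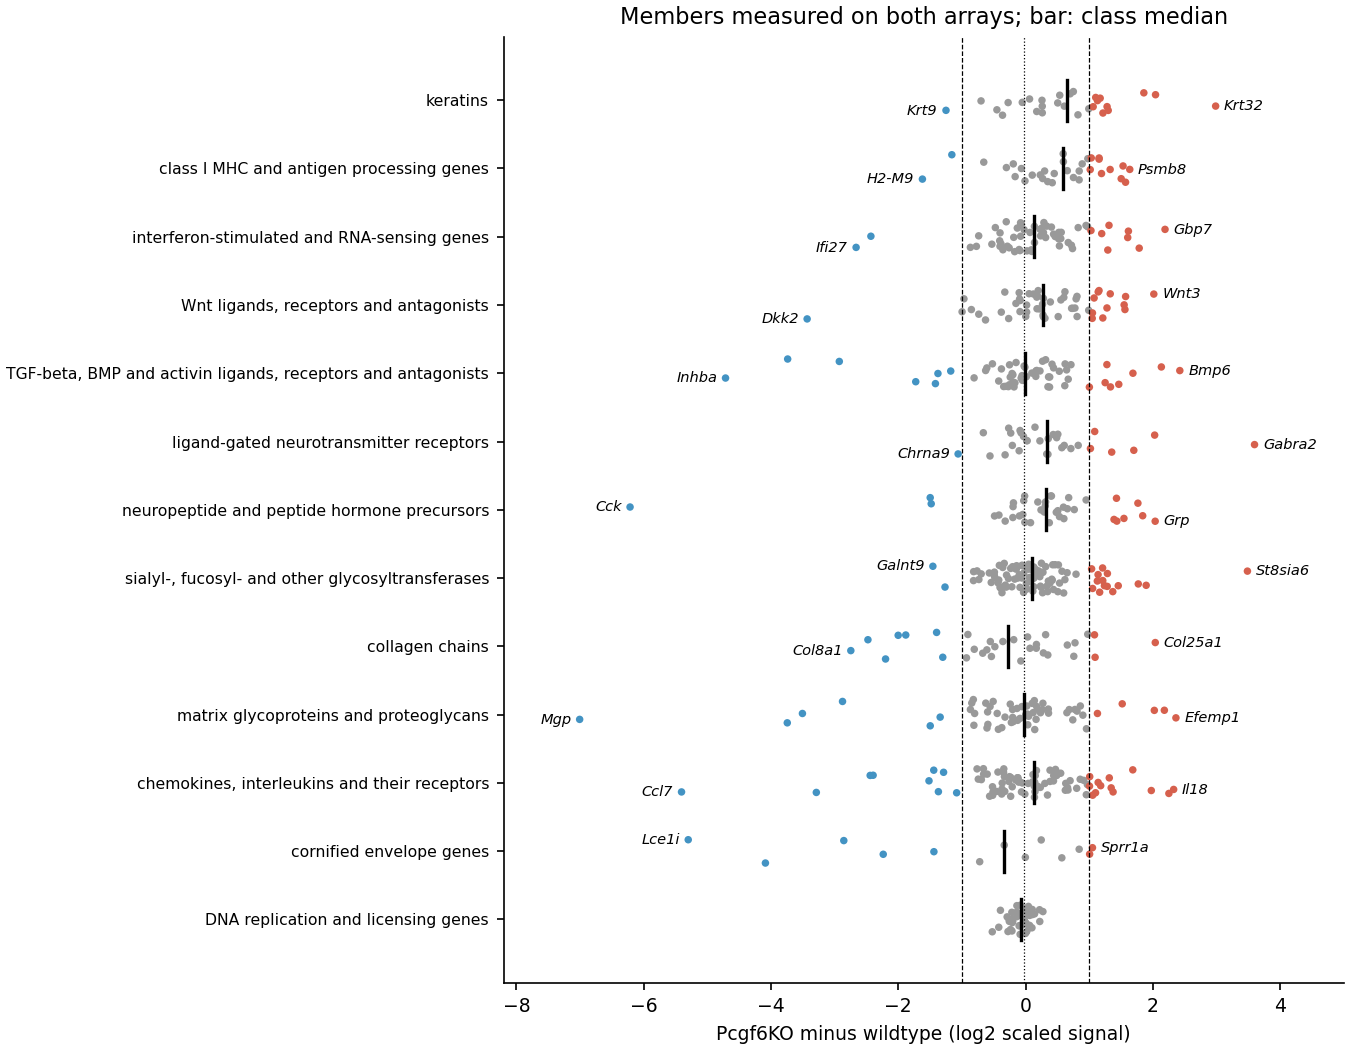
Difference between Pcgf6KO and wildtype (log2 scaled signal) for each member of 13 classes measured on both arrays, red at least 2-fold higher, blue at least 2-fold lower; black bars are class medians, dashed lines mark 2-fold and the dotted line is the median of all genes. Keratins and class I MHC genes have medians above that of all genes (0.66 and 0.60) with members on both sides of 0, TGF-beta and chemokine genes spread to both sides, and replication genes stay between -0.52 and 0.27.

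Fibroblast markers had the highest share of lower genes of the 93 classes. In the fuller list of fibroblast markers, 14 of the 31 with a level in each genotype were lower by 2-fold or more and none was higher, beside 2.81% of all genes. A further 7 were at least 2-fold lower as a bound. Mgp, an inhibitor of calcification, read 0.89 in wildtype and -6.12 in Pcgf6KO, the largest drop among the list's genes measured on both arrays. The fibulin Fbln2 read 2.99 and -0.75, and Lox, which cross-links collagen, -0.38 and -4.43. Col1a1, Timp1 and Dcn differed by -0.93, -0.60 and -0.20, and Mmp2 by 0.29, so the list was not lower by a common amount. Whether there were fewer fibroblasts in the Pcgf6KO culture or less of these RNAs per cell cannot be told apart in a bulk sample.

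Collagen chains were lower in 7 and higher in 3 of 32 (21.9% and 9.38%, beside 2.81% and 5.82% of all genes), with a median of -0.27. The lower ones included 4 of the listed fibroblast markers: Col1a2 read 2.60 and 0.60, Col3a1 0.43 and -2.04, Col6a1 -0.64 and -2.84 and Col6a2 -3.92 and -5.80. The network collagen Col8a1, not on that list, read -2.99 and -5.73. Col25a1, a transmembrane collagen of neurons, was higher, at -4.75 and -2.71. Of 60 matrix glycoproteins and proteoglycans 6 were lower and 5 higher (10% and 8.33%). As a bound 5 more were lower, Bgn by at least 27.0-fold and Postn by at least 12-fold. Ltbp2 read -0.59 and -4.10. On the other side Efemp1 was 2.36 higher, the laminin chain Lamb3 of epithelial basement membrane 2.18 and Thbs4 2.02. Fn1 and Sparc, bright on both arrays, differed by -0.09 and -0.22.

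Proteases and their inhibitors moved in both directions. Of 42 metalloproteinases and inhibitors 4 were higher and 5 lower, of 26 serpins 3 and 3, and of 16 cathepsins and cystatins 1 and 1. Adamts16, a secreted metalloproteinase, read -5.88 in wildtype and -4.21 in Pcgf6KO, and Adamts19 was at least 5.68-fold higher. Serpinb5, also called maspin, was 1.69 higher and Serpinb1c 1.66 higher. The stromelysins Mmp3 and Mmp10 were well above background in wildtype alone, at least 35.6-fold and 25.2-fold lower in Pcgf6KO. The inhibitor Timp3 read 1.59 and -0.37. Serpinb2, an inhibitor of plasminogen activation, was at least 70.2-fold lower. The collagen-degrading cathepsin Ctsk was at least 20.8-fold lower, whereas Ctsc, an activator of serine proteases, read -0.95 and 1.07. Of 24 contractile genes 3 were lower and 0 higher (12.5% and 0%, beside 2.81% and 5.82% of all genes). Of the 24 contractile genes 20 were bright. Acta2 and Actg2, the smooth-muscle actins, read 3.64 and 0.04 in wildtype and 1.01 and -4.61 in Pcgf6KO. Of 19 integrins 4 were lower and 1 higher (21.1% and 5.26%), and only 5 of the 19 were bright. Among the dimmest genes 5.79% were lower and 13.3% higher. Itga11, a collagen receptor of fibroblasts, read -3.60 and -5.31, while Itgb1 and Itga6 differed by -0.10 and -0.02.

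Guidance receptors, membrane proteins and cytokines with large falls were found in several families. Nrp1, a co-receptor for semaphorins and VEGF, read -0.78 in wildtype and -5.01 in Pcgf6KO, and Sema3a, its ligand, was at least 5.59-fold lower. Tm4sf1, of the L6 family, read 2.17 and -3.13, one of the largest falls among bright genes. Cdh11, the mesenchymal cadherin, was lower by -4.39 on its brighter probe and differed by 0.35 on its dimmer one, so its direction is uncertain. Of 89 chemokines, interleukins and receptors 13 were higher and 9 lower (14.6% and 10.1%), and 8 more were lower as a bound against 1 higher. The shares were 5.82% and 2.81% over all genes and 13.3% and 5.79% over the dimmest genes. The monocyte chemokines Ccl7 and Ccl2 read -0.25 and 0.68 in wildtype and -5.66 and -2.61 in Pcgf6KO. The interleukin 33 receptor Il1rl1 was at least 28.7-fold lower. Il18 and Cxcl16 were higher, at -4.89 and -1.44 in wildtype and -2.56 and 0.54 in Pcgf6KO. Mcpt8, a protease of basophils, was at least 69.6-fold lower. Cd99 was bright and lower, at 2.94 and 0.09, and Ptgs2, the inducible prostaglandin synthase, read 1.52 and -0.46.

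Proliferins and late cornified envelope genes had some of the steepest single falls. Of 5 prolactin family genes measured on both arrays 2 were lower: Prl2c5 read 2.16 and -4.83 and Prl2c1 1.90 and -3.16. Both are proliferins, which are near copies of each other. Of 13 cornified envelope genes 5 were lower and 2 higher (38.5% and 15.4%, beside 2.81% and 5.82% of all genes). As a bound 6 more were lower and 1 higher, Scel by at least 10.4-fold. Lce1i read 0.21 and -5.09, Lce1h 0.55 and -3.54 and Lce1c 1.3 and -1.55, and Lce1g was at least 79.5-fold lower. The Lce1 genes, which encode late envelope proteins of skin, are also near copies. They went against the keratins, although both are epithelial. Fibroblast markers fell beside all these lower groups, and their part in them was not tested.

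**Figure D5:**
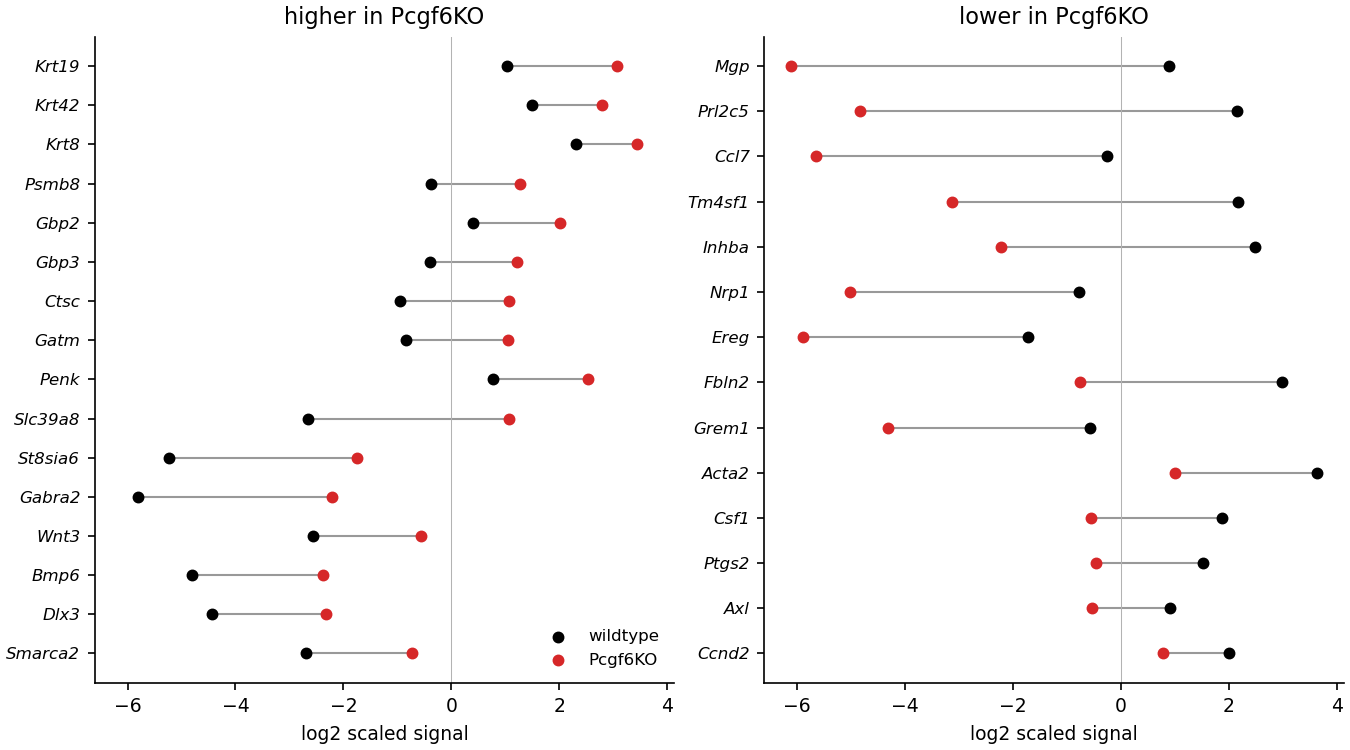
Levels (log2 scaled signal, 0 at the array's 75th percentile) of 16 higher and 14 lower genes on the wildtype (black) and Pcgf6KO (red) arrays, 1 array per genotype. Lower genes such as Mgp (0.89 to -6.12) and Prl2c5 (2.16 to -4.83) went from above the 75th percentile to far below it, while Krt19, Krt42 and Krt8 were above it on both arrays.

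The machinery shared by dividing cells was nearly level between the arrays. None of 46 DNA replication genes, 45 mitotic spindle genes, 65 DNA repair genes, 77 mitochondrial ribosomal proteins, 102 tRNA synthetases and translation factors, 23 glycolysis genes or 57 lysosome and autophagy genes passed 2-fold. Pcna differed by 0.11, Mcm2 by -0.10 and Cdk1 by 0.02. Of 80 cytosolic ribosomal proteins 1 passed, Rpl10l, at 2.17 and 1.12. Of 83 respiratory chain and ATP synthase subunits Cox8c was 2.72 higher and Cox6b2 lower by -1.19. All 3 are tissue-restricted copies rather than the common subunits. Among 47 proteasome subunits Psmb8 alone passed. Of 59 cyclins and Cdk genes Ccna1, the germ cell cyclin A, was 1.5 higher, and Ccnd2 and E2f2 were lower by -1.21 and -1.17. Of 65 histone genes 2 were lower, H3c15 at -3.19 and -5.70 and H2ac18 at -0.03 and -2.01.

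Naive pluripotency genes also stayed within 2-fold. None of 31 passed, and their median was -0.24, against -0.03 for all genes. Pou5f1 read 4.62 in wildtype and 4.42 in Pcgf6KO, Nanog 4.96 and 4.85, and Sox2 3.03 and 2.96. Esrrb differed by -0.24 and Fgf4 by -0.52. Of 18 primed epiblast genes 1 was higher, Fgf5 by 1.85, and 1 lower, Lef1 at -0.97 and -2.02. Of 22 primitive and visceral endoderm genes 3 were higher and 1 lower (13.6% and 4.55%), with a median of -0.17. The shares were 5.82% and 2.81% over all genes and 13.3% and 5.79% over the dimmest genes. None of the 7 bright endoderm genes passed 2-fold. Afp read -5.73 and -3.01, and Cubn -1.26 and -3.14, while Gata4, Gata6 and Sox17 differed by -0.86, -0.16 and -0.52.

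Outside the classes, several single genes stood among the 40 largest differences of the brighter genes. Stmn4, a neuronal microtubule regulator, read -0.37 in wildtype and 1.64 in Pcgf6KO, with its 2 probes at 2.02 and 2.03. Hsf5, a heat shock factor of the testis, read -0.65 and 1.61, Hmgn3, a nucleosome-binding protein, 1.13 and 2.90, and Ltb, lymphotoxin beta, -0.58 and 1.3. On the lower side the unconventional myosin Myo1f read 1.35 and -1.44, with probes at -2.89 and -2.79. Morc1, an ATPase that silences transposons in germ cells, was lower, at 3.71 and 2.57, against the direction of the germline list. In that list 26 of 59 genes were higher and 2 lower (44.1% and 3.39%), with a median of 0.92.

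Over all 93 classes, 53 had more members at least 2-fold higher than lower, 20 had more lower and 20 had as many of each. Among genes in a class 7.88% were higher and 3.89% lower, against 4.91% and 2.34% of genes in none. Keratins, trophoblast genes, the Ly6 family, class I MHC genes and glycosyltransferases kept a positive median under each of the 9 other ways of processing the arrays that give class medians. Collagens and fibroblast markers kept a negative one, though that of collagens came as near to 0 as -0.02. Other classes described kept their sign too. Among them were naive pluripotency genes, with medians from -0.28 to -0.11, and growth factor ligands, from -0.42 to -0.23. Medians close to 0 often changed sign with the scaling. The balance of higher to lower members turned among bright genes for the TGF-beta, growth factor, chemokine, P450, homeobox and Zfp classes. It also turned there for receptor tyrosine kinases, tetraspanins, ABC transporters, ligand-gated receptors, and sodium, calcium, chloride and TRP channels. Each of these turns rests on a single gene, with 0 bright members higher and 1 lower. For growth factors and chemokines that gene was the same, Csf1. Insulin-like growth factor genes turned the other way, with 1 bright member higher and 0 lower. The balance turned also under normexp background correction and without a filter on dim probes for growth factors and chemokines. Without scaling it turned for matrix glycoproteins, metalloproteinases and CD antigens. Scaling to the percentile over probes measured on both arrays turned it for metalloproteinases and CD antigens. Without the filter it turned for metalloproteinases and FGF genes. Some classes not described here turned too.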

How the data were processed

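RNA was labelled with Cy3 and read on 1-colour Agilent arrays, per the labels. The deposited files hold spot intensity on a linear scale, background-subtracted as Agilent's processed signal, from Feature Extraction 11.5.1.1 per the file headers (10.7 per the submitters' processing notes). The deposited value table equals that intensity, unscaled, in 55249 of 55249 single-spot probes per array (relative tolerance 1e-06), with column medians of 243 and 273. It holds no ratio, so it has no direction.

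Control spots and outlier spots (141 and 158 of 59305) were left out and none was saturated. Spots of a probe were averaged on the log2 scale and the 75th percentile of the array's non-control probes was subtracted. A probe was measured where most of its spots were well above background. Accessions matched to RefSeq (GRCm38.p6) named 26762 of 55681 probes, giving 20284 genes, 15887 of them measured on at least 1 array. Each gene was read from its brightest probe. Bright means at or above the median signal of genes measured on both arrays. The dimmest spots well above background had 52.7 and 53.4 signal units. Precision is limited by having 1 array per genotype.

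Named genes were Pcgf6, up to 4 highest and 4 lowest members of a class past 2-fold, up to 2 bounds each way, textbook members within 2-fold, and genes among the 40 largest differences each way at bright signal. Predicted genes were not named, and a few eligible genes are not reported here. Members and lists were chosen with earlier results of these data known, and some symbol patterns of classes were corrected after values were seen. In the figures and text, members beyond this rule were chosen after their values were seen (Krt8, Isg15, Erap1, and Ct55 and Tcam1 for their promoters). The calling steps were run on simulated arrays, with changes planted only in genes above the median signal and the same noise at every signal. That run checks the code and cannot show how well calls at dim signal hold. Alternatives were normexp (limma 3.58.1, offset 50, on the median spot signal), quantile and median scaling, another percentile, no scaling, no filter, bright genes only, the mean over probes, outliers kept and thresholds of 1.5-fold and 3-fold. Tools were Python 3.11.15, pandas 2.3.3, numpy 2.4.6, matplotlib 3.10.9 and R 4.3.3.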

Additional observations from a re-analysis of the deposited data

How the results depend on the processing

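The counts of genes at least 2-fold higher and lower stayed within 1.5 times under normexp (598 and 319), quantile normalization, median scaling, the percentile over probes measured on both arrays, the mean over probes and outlier spots kept. Without scaling they were 1086 and 309, so 77.8% of the called genes were higher in place of 67.4%, and the median of all genes was 0.11 in place of -0.03. Other choices moved the counts further. Without a filter on dim probes 1599 genes were higher and 885 lower, and among bright genes 76 and 58, of which 56.7% were higher. With a threshold of 1.5-fold there were 1760 higher and 1132 lower, and with 3-fold 320 and 146.

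Of the class medians recomputed, 634 moved by less than 0.14, the median SD over probes of a gene, and 203 by more. The sign of the median turned under at least 1 choice in 62 of 93 classes, mostly where it lay near 0. Named genes that fell short of 2-fold numbered 78 under normexp, 36 without scaling, and 8 to 14 under the other scalings and the mean over probes. The cause was not tested. Dim genes rest on signals near the lowest well above background, which limits their precision. No paired analysis was possible because each genotype has 1 array, and there was no array to leave out. Slide as a block was not run, since both arrays share a slide.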
